A study of Caenorhabditis elegans with 14 samples.

Results

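Among the 169 long intergenic noncoding RNA (lincRNA) genes that the small RNA tables of this Caenorhabditis elegans study annotate, 38 had 20 or more antisense reads over the 9 small RNA libraries together. These 38 are the lincRNAs described here, and linc-22 had the most reads of them. The choice rests on the summed antisense reads, so the size of that sum is a description and not a finding. The 38 lincRNAs held 219473 antisense reads, and the other 131 held 357, of which 70 genes had none. The members nearest to the threshold were linc-76 with 33 reads, linc-19 with 28 and linc-32 with 26, and just below it lay linc-45 and linc-54 with 19 each, linc-110 with 17 and linc-120 with 16.

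The libraries were made from embryos, with 1 library for each group, so no spread between cultures can be estimated and no test between groups was possible. Total small RNA was sequenced in 5 groups: N2, which is the wild type, cold-shocked N2, susi-1(R457H), and eri-1(mg366);3xflag::gfp::nrde-3 without and with ultraviolet light (UV). Small RNA that came down with tagged NRDE-3 was sequenced in 4 groups: N2 carrying 3xflag::gfp::nrde-3 after cold shock, and eri-1(mg366);3xflag::gfp::nrde-3 as cold-shocked, UV-treated and untreated embryos. Per the labels, all cultures grew at 20 °C, the cold shock was 4 °C for 12 h with 2 h of recovery at 20 °C, and the UV dose was 50 mJ/cm2 with 2 h of recovery. The labels name no transgene for the total libraries of N2 (with or without cold shock) and susi-1(R457H), and the plates of the UV experiment carried no food while the others carried bacteria. The eri-1 and N2 total libraries therefore differed in transgene and food as well as in eri-1, and these cannot be told apart.

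Small interfering RNAs (siRNAs) of C. elegans are short RNAs antisense to their target, and most are made by RNA-dependent RNA polymerases that copy the target transcript. One branch begins with the Argonaute ERGO-1 and needs ERI-1, a conserved exonuclease. Its secondary siRNAs are carried into the nucleus of somatic cells by the Argonaute NRDE-3, where they direct transcriptional silencing of the matching gene. Long noncoding RNAs, recently duplicated genes and pseudogenes are among the known targets of that branch. SUSI-1 (disl-2) is an exoribonuclease of the Dis3L2 family that degrades RNAs with uridine tails.

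The libraries held 357435 to 3123387 reads outside ribosomal RNA (rRNA), and values are given as reads per 1000000 of these (CPM). Ribosomal RNA took 51.8% to 95.6% of assigned reads. The NRDE-3 libraries of eri-1 without and with UV stood apart: antisense reads fell on 719 and 804 genes, against 5795 to 13934 in the other 7, and antisense reads made up 2.15% and 4.51% of their reads on protein-coding genes, against 12.8% to 96.3%. The embryonic mir-35 family held 13825 to 101992 CPM of sense reads in the 5 total libraries, against 62.9 to 1149 CPM for 6 microRNAs of larval stages (lin-4, let-7, mir-48, mir-84, mir-237, mir-241), with the highest larval level in N2 after cold shock. Sense reads of eri-1 numbered 12 in N2 and 1 in eri-1 without UV, too few to check the allele, and a point mutation in susi-1 cannot be seen in these counts.

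The 38 lincRNAs were read mostly from the antisense strand in all 9 libraries. Antisense reads made up 97.5% of their reads in N2, 97.8% in cold-shocked N2, 98.9% in susi-1(R457H) and 99.9% in the NRDE-3 library of N2. In eri-1 the share was 96.6% and 95.3% in total RNA without and with UV, 95.1% in NRDE-3 RNA after cold shock, and lower in the 2 other NRDE-3 libraries, at 71.1% without UV and 71.97% with UV. The lincRNAs under the threshold had an antisense share of 42.6% to 44.3% in the 5 total libraries. Within the 38, 33 had more antisense than sense reads, and linc-76, linc-109, linc-40, linc-154 and linc-167 had more sense reads, which means that these 5 were chosen by the read sum without being mainly antisense. The strand share follows in part from a rule that counts antisense reads, so no test was made of it.

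Reads were concentrated on few genes. linc-22 supplied 48.4% of the antisense reads of the 38, the top 5 (linc-22, linc-16, linc-11, linc-29 and linc-12) supplied 87.9%, and the lincRNAs ranked 14 to 38 together had 2694 reads. In all, 12 lincRNAs had 1000 reads or more: these 5 and linc-7, linc-68, linc-8, linc-63, linc-17, linc-6 and linc-24. The NRDE-3 library of N2 held over 50% of the antisense reads of 12 of the 38, and without it 34 would pass the threshold. The 4 that depended on it were linc-86, linc-64, linc-42 and linc-19, so their high level in that library was needed for their choice.

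In the Ensembl annotation of build WBcel235, matched by WormBase gene ID, linc-22 (F47E1.18) lies on the plus strand of chromosome X at 9069138-9073735 with 4071 exonic bases, the longest of the 38. The range of exonic length was 131 to 4071 bases with a median of 642.5. Chromosome II carried 10 of the 38 and 6 of the 12 best-read ones, against 24 of the 131 other lincRNAs. These were linc-16 (1820242-1820946, minus strand), linc-8 (2501838-2503802, minus), linc-12 (2681408-2681658, minus), linc-11 (3373169-3374185, minus), linc-17 (3596226-3596812, plus) and linc-68 (3597516-3597914, plus). linc-17 and linc-68 lie 703 bases apart on the same strand. The others of the 12 were linc-29 on chromosome IV (6354024-6357243, plus), linc-7 and linc-6 on X (16002599-16003728, plus, and 1982710-1982883, minus), linc-63 on I (3870642-3871267, minus) and linc-24 on III (1370495-1371568, plus).

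Several of these loci touch other genes, which bears on what an antisense read is. Of the 38, 20 overlap no other annotated gene, and 7 have an exon opposite an exon of another gene. There, a read antisense to the lincRNA is sense to its partner. These 7 are linc-16, linc-8, linc-169, linc-121, linc-31, linc-77 and linc-76. linc-22 shares exonic bases on its own strand with F47E1.19, which had 128 antisense reads in the NRDE-3 library of N2. linc-16 lies opposite fbxc-19, an F-box gene, which had 530 sense reads in the NRDE-3 library of N2 beside 28085 antisense reads of linc-16. It also shares exonic bases on its own strand with fbxa-3, which had 557 antisense reads in that library. In all, 9 of the 38 share exonic bases on their own strand with another gene. A read antisense to shared bases is antisense to both genes. linc-169 lies opposite mtch-1, a mitochondrial carrier gene, and its antisense reads numbered 73 in N2, 134 in the cold-shocked eri-1 NRDE-3 library and 106 in the UV eri-1 NRDE-3 library, where mtch-1 had 115, 247 and 107 sense reads. Reads of linc-169 and of mtch-1 cannot be told apart, and linc-169 is given below as uncertain. Of the 38, 6 overlap piRNA (21U RNA) loci (linc-22, linc-16, linc-11, linc-24, linc-121 and linc-75), and none of these loci had more than 1 sense read over the 9 libraries.

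The levels across libraries split the best-read lincRNAs into a pair of patterns. linc-22 stood at 7135 CPM in N2, 3141 in cold-shocked N2, 10652.5 in susi-1(R457H), and 20.5 and 46.7 in eri-1 without and with UV. In NRDE-3 RNA it stood at 46750 CPM in N2 and 207 in cold-shocked eri-1, and it had no read in the other 2 eri-1 libraries. linc-22 was thus high in the 4 libraries not labelled eri-1 and low in the 5 labelled eri-1.

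linc-16, linc-11 and linc-12 had the same order between N2 and eri-1. linc-16 had 778 CPM in N2, 420 in cold-shocked N2, 1904 in susi-1(R457H), and 5.65 and 8.32 in eri-1 without and with UV. In the NRDE-3 libraries it had 14527 CPM in N2 and, in eri-1, 89.5 with cold shock, 0 without UV and 121 with UV. linc-11 had 2891, 295, 6351, 574 and 578 CPM in the 5 total libraries in that order, and 7531, 165, 0 and 0 in the NRDE-3 libraries. Of these lincRNAs linc-11 kept the most reads in eri-1 total RNA.

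linc-12 had 1541 CPM in N2, 114 in cold-shocked N2, 1745 in susi-1(R457H), and 0 and 13.1 in eri-1 without and with UV, then 6613, 50.4, 0 and 0 in the NRDE-3 libraries. Per 1000 exonic bases, linc-12 was the highest of the 14 best-read lincRNAs in N2 (7905 CPM per kb) and in NRDE-3 RNA of N2 (33914 CPM per kb), where linc-16 stood at 25576 and linc-22 at 11484 CPM per kb. The first place of linc-22 in reads is thus not a first place per length.

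linc-29 had the other pattern. It stood at 1419 CPM in N2, 241 in cold-shocked N2, 213 in susi-1(R457H), and 3106 and 2862 in eri-1 without and with UV. In NRDE-3 RNA it stood at 77.6 CPM in N2 and, in the same order of eri-1 libraries, at 1631, 124 and 77.3. linc-7 had 772, 54.2, 255, 713 and 464 CPM in the total libraries and 134, 2370, 37.6 and 0 CPM in the NRDE-3 libraries. Both were lower in NRDE-3 RNA of N2 than in that of cold-shocked eri-1, and so were linc-63 and linc-6. In N2 after cold shock, linc-7 had more CPM in NRDE-3 RNA than in total RNA, and linc-29 had fewer.

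**Figure D1:**
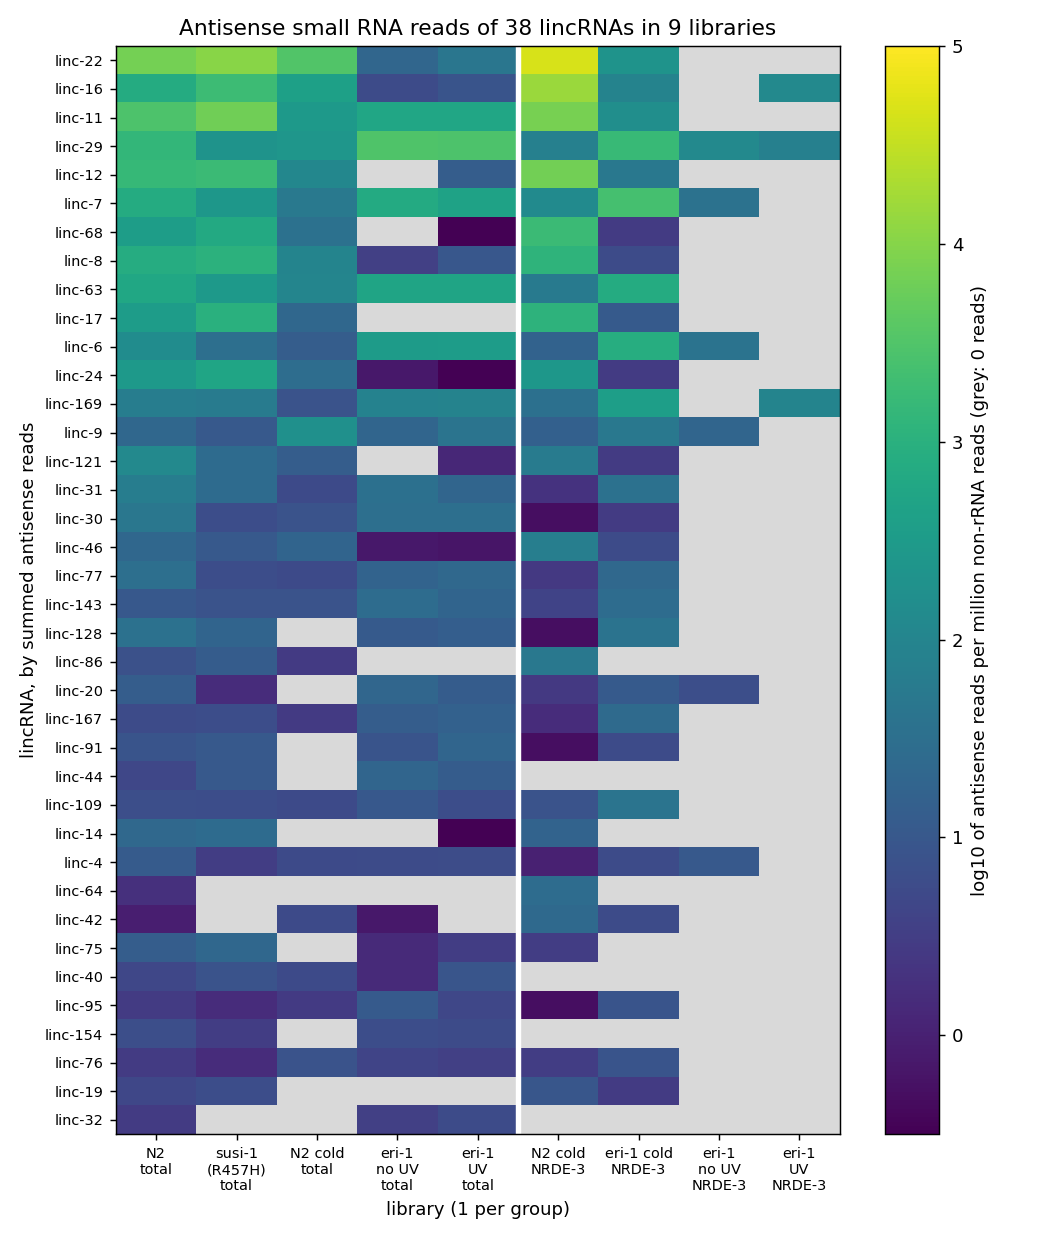
Antisense reads of the 38 lincRNAs (rows, by summed reads) in the 9 libraries (columns, 1 per group), as the log10 of reads per 1000000 non-rRNA reads, with grey for 0 reads and a white line between total and NRDE-3 libraries. linc-22 goes from 46750 CPM in NRDE-3 RNA of N2 to 207 in that of eri-1, while linc-29 goes from 77.6 to 1631.

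The same shift changed which lincRNA led. linc-22 supplied 40.5% of the antisense reads of the 38 in N2, 64.7% in cold-shocked N2, 42.6% in susi-1(R457H) and 58.1% in the NRDE-3 library of N2. In eri-1 it supplied 0.366% of them without UV, 0.900% with UV and 3.03% in NRDE-3 RNA after cold shock. linc-29 led in both total libraries of eri-1 and in the NRDE-3 library without UV, linc-7 led in the NRDE-3 library after cold shock and linc-16 in that with UV. The 2 NRDE-3 libraries of eri-1 without cold shock had antisense reads on 6 and 3 of the 38, with 424 and 321 antisense reads.

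**Figure D2:**
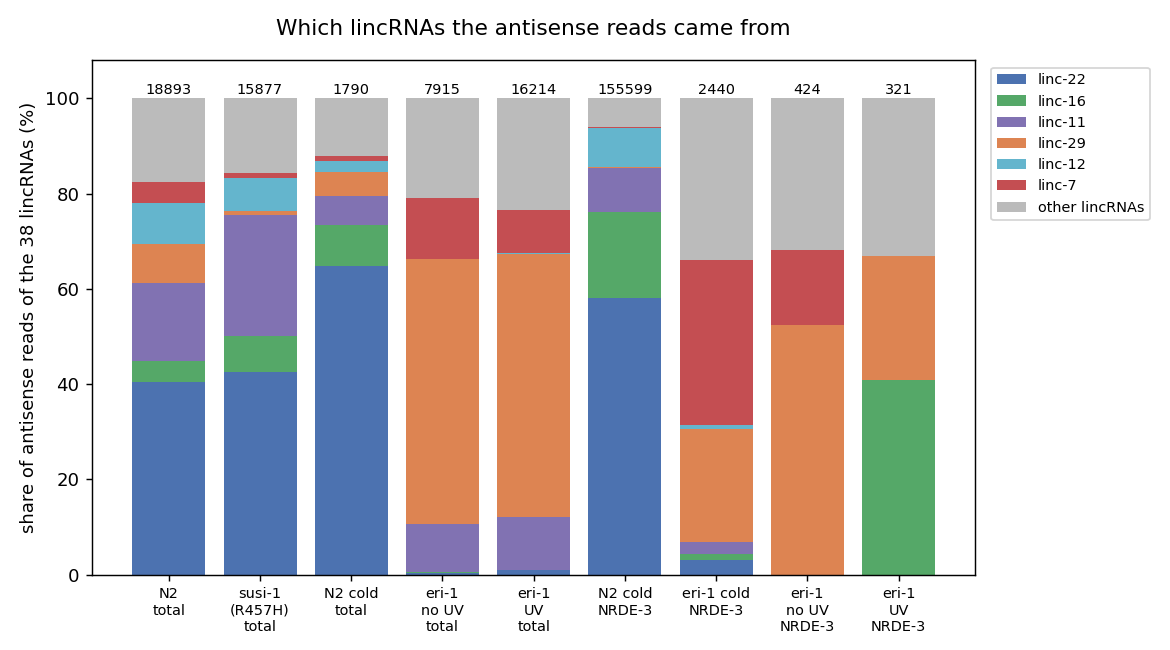
Share of the antisense reads of the 38 lincRNAs in each library (%) that came from each of 6 lincRNAs and from the rest, with the number of antisense reads above each bar. linc-22 takes 40.5% to 64.7% in the 4 libraries not labelled eri-1 and at most 3.03% in the eri-1 libraries.

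For each comparison the ratio of CPM between its 2 libraries is given with an exact conditional binomial (Clopper-Pearson) 95% interval, which covers counting error only, since the reads carry no molecular identifiers and differences between cultures are not in it. A lincRNA with 20 or more antisense reads in the pair is called higher or lower where its ratio is at least 2 or at most 0.5 and the interval excludes 1. A count of 0 is set to 3 reads for a ratio, called a bound here, which is not the limit of the 95% interval. The same rule over all genes with 20 or more antisense reads in the pair gives the background. The filter counts the reads of both libraries, so a lincRNA low in one can enter through the other. The comparisons of susi-1(R457H), cold shock and eri-1 in total RNA share the N2 library, so they are not independent, and other comparisons share libraries too.

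In total small RNA, linc-22 and 11 others were lower in eri-1 without UV than in N2, while linc-29, linc-6, linc-143 and linc-44 were higher. Of 28 lincRNAs with enough reads, 4 were called higher and 12 lower, where 4.37% of all 5219 genes were called higher and 25.3% lower. The median log2 ratio was −0.90 for the 28 and −0.53 for all genes. In RNA of whole embryos, fewer cells that make an siRNA and fewer siRNAs per cell cannot be told apart. Scaled to antisense reads of protein-coding genes instead, the calls were 8 higher and 11 lower, and scaled to all assigned reads or to microRNAs they were 2 higher and 15 lower.

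The lincRNAs called lower in eri-1 differed in size of change. linc-22 had 29 reads in eri-1 and 7647 in N2, 348-fold lower (95% interval 242 to 521). linc-16 was 138-fold lower (interval 69.6 to 320) and linc-8 was 224-fold lower (interval 95.6 to 692).

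linc-12 had no read in eri-1 against 1652 in N2, a bound of 727.5-fold lower (interval at least 591-fold). As bounds, linc-68 (0 against 397 reads) was 175-fold lower and linc-17 (0 against 368) 162-fold (intervals at least 141.5 and 131). linc-121 (0 against 129) was 56.8-fold lower as a bound (interval at least 45.5). linc-24 had 1 read against 312, a ratio of 0.00243 with an interval of 6.12e-05 to 0.0136. linc-11 was only 5.03-fold lower (interval 4.66 to 5.44), with 813 reads left. The remaining lincRNAs called lower, linc-46, linc-128 and linc-14, had 1, 16 and 0 reads in eri-1 against 23, 39 and 25. Of the lincRNAs called lower, only linc-22 and linc-11 had 20 or more reads in eri-1. The others passed the filter of 20 reads through N2.

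The lincRNAs called higher changed little by comparison. linc-29 had 4398 reads against 1521, 2.19-fold higher (interval 2.06 to 2.32), and linc-6 had 459 against 159, 2.18-fold higher (interval 1.82 to 2.63). Both calls were lost under another scaling. linc-143 was 2.68-fold higher (39 against 11 reads) and linc-44 4.24-fold higher (28 against 5). linc-7 and linc-63 were called neither, with ratios of 0.923 (interval 0.841 to 1.014) and 0.840 (interval 0.754 to 0.936).

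Summed over the 38, antisense reads were lower in eri-1 at 5590 CPM against 17629, a ratio of 0.317 (interval 0.309 to 0.326). Without linc-22 the ratio was 0.531, above the limit of 0.5, so linc-22 decided the call on the sum. Over the 20 that overlap no other gene the ratio was 0.837. These leave out linc-22, linc-16, linc-11 and linc-8, and linc-11 only for its 21U loci. Scaled to antisense reads of protein-coding genes, the ratio over the 38 was 0.517. Sense reads of linc-22 stood at 14.9 CPM in N2 (16 reads) and 14.1 CPM in eri-1 without UV (20 reads), and linc-17 had 27 sense reads in eri-1 without UV with no antisense read.

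NRDE-3 RNA of N2 after cold shock held more lincRNA siRNAs than total RNA of N2 after cold shock. Of 20 lincRNAs, 16 were called higher in NRDE-3 RNA and 2 lower, where 30.0% of 1435 genes were higher and 31.5% lower. Their median log2 ratio was 3.32, against 0.50 for all genes. No control pull-down was analysed here. linc-86, linc-64 and linc-42 were chosen through this NRDE-3 library, and without them and linc-19 the counts were 13 higher and 2 lower of 17. Of the 16 called higher, only linc-22, linc-16, linc-11, linc-12, linc-7 and linc-8 had 20 or more reads in total RNA. The others passed the filter of 20 reads through the NRDE-3 library, so their calls follow in part from that filter.

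linc-12 was 58.1-fold higher in NRDE-3 RNA (interval 42.9 to 80.65, 12785 reads against 42). linc-16 was 34.6-fold higher (interval 29.5 to 40.8), linc-11 25.5-fold (interval 21.1 to 31.1) and linc-22 14.9-fold (interval 14.04 to 15.8). linc-17 and linc-68 were 52.7-fold and 51.6-fold higher from 8 and 13 reads in total RNA. linc-8 and linc-24 were 12.5-fold and 8.47-fold higher. linc-7 was also called higher, at 134 CPM in NRDE-3 RNA against 54.2 in total RNA (260 reads against 20). At the other end linc-29 was 3.11-fold lower (interval 2.36 to 4.07) and linc-9 11.5-fold lower (interval 7.38 to 18.4), while linc-63 and linc-6 were called neither.

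The sum was 16.6-fold higher (interval 15.8 to 17.4), 19.7-fold without linc-22. Antisense reads of protein-coding genes were 11.4-fold higher in the same pair. Scaled to these, the sum was 1.45-fold higher and the calls were 5 higher and 6 lower.

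In NRDE-3 RNA after cold shock, linc-22, linc-16, linc-11 and linc-12 were lower in eri-1 than in N2, and linc-29, linc-7, linc-63 and linc-6 were higher. Of 21 lincRNAs, 7 were called higher in eri-1 and 14 lower, and none was called neither. The background ran the other way, with 92.6% of 3220 genes higher and 5.22% lower in eri-1. The median log2 ratio was −3.88 for the 21 and 4.02 for all genes. The 14 include linc-86, linc-64 and linc-42. Without the 4 lincRNAs chosen through the N2 library, the counts were 7 higher and 11 lower of 18. Of the 14, only linc-22, linc-16 and linc-11 had 20 or more reads in the eri-1 library. The others passed the filter of 20 reads through the N2 library, where they were high, so their calls follow in part from that filter.

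linc-22 had 74 reads in eri-1 against 90379 in N2, 226-fold lower (interval 180 to 288). linc-16 was 162-fold lower (interval 114.9 to 237), linc-12 131-fold (interval 83.1 to 222) and linc-11 45.6-fold (interval 35.35 to 60.0). linc-8 and linc-68 had 2 and 1 reads in eri-1 against 2355 and 3515, with ratios of 0.00459 (interval 0.000556 to 0.0166) and 0.00154 (interval 3.895e-05 to 0.00858). linc-11, which kept 813 reads in eri-1 total RNA, was thus also low in NRDE-3 RNA of eri-1.

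linc-6 was 49.0-fold higher in eri-1 (299 reads against 33, interval 34.1 to 72.5). linc-29 was 21.02-fold higher (interval 17.5 to 25.3), linc-7 17.6-fold (interval 15.3 to 20.3) and linc-63 13.1-fold (interval 10.5 to 16.4). linc-109, linc-9 and the uncertain linc-169 were also called higher. The median of all genes was 16.2-fold higher in eri-1. linc-6, linc-29 and linc-7 lay above it, and linc-63, linc-169 (10.98-fold), linc-109 (5.07-fold) and linc-9 (3.25-fold) lay below it. Under the DESeq2 size factors and the TMM factors of edgeR, which centre on all genes, the calls were 1 higher (linc-6) and 16 lower, and linc-63 stood at 0.967 under both. Under all assigned reads they were 3 higher and 15 lower.

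**Figure D3:**
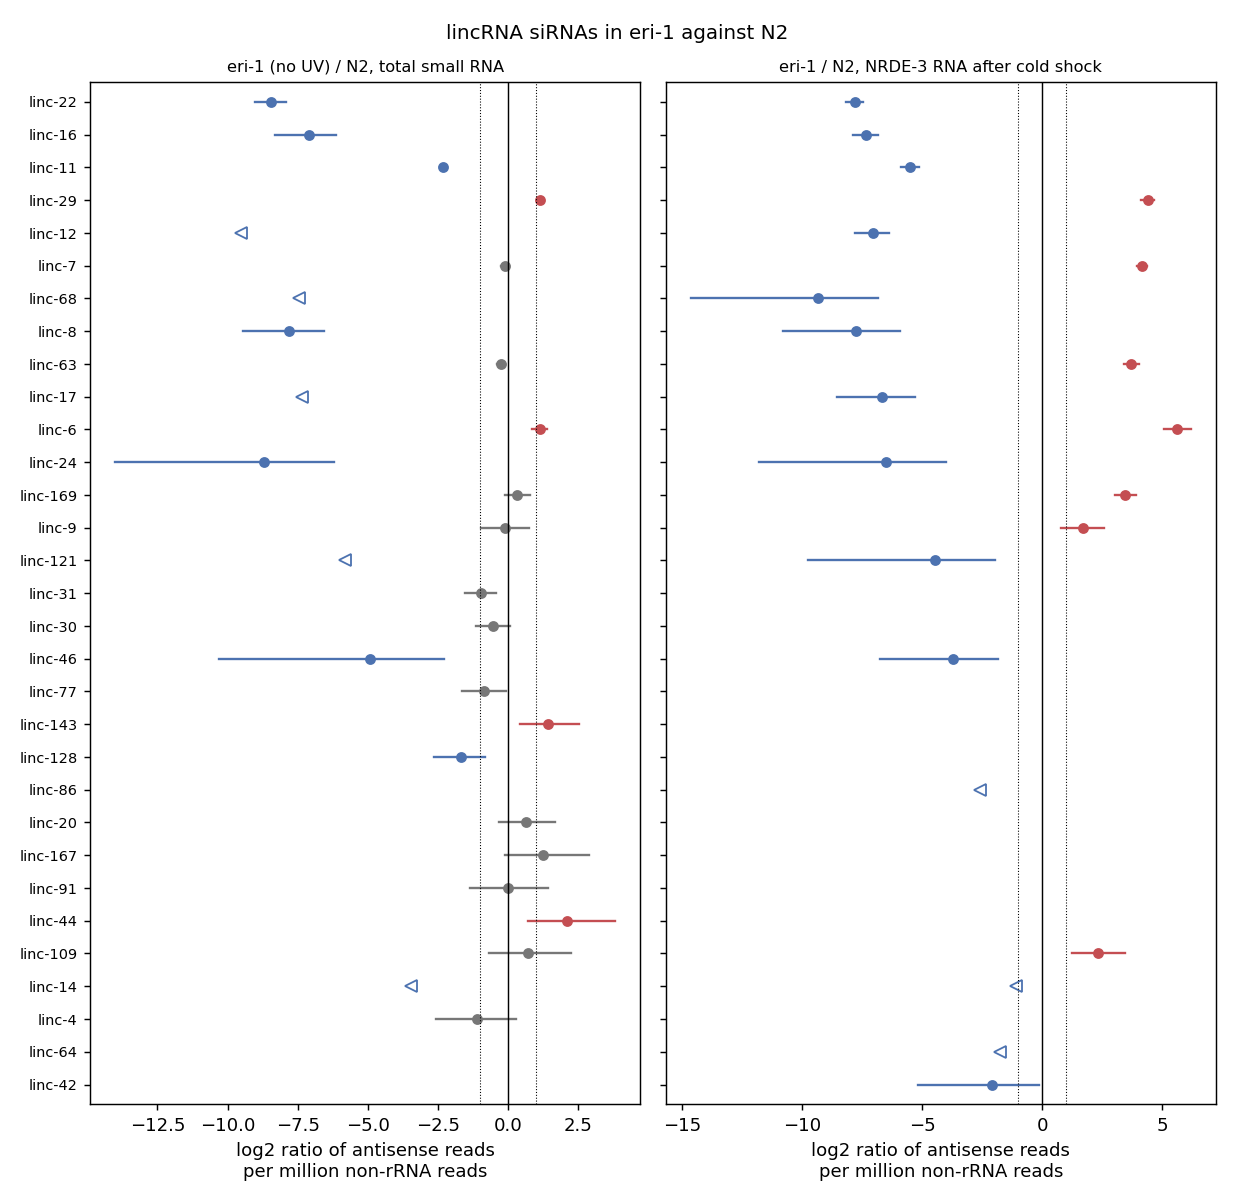
log2 ratio of antisense CPM, eri-1 over N2, in total RNA (left) and NRDE-3 RNA after cold shock (right), for the lincRNAs with 20 or more reads in either pair. Points are ratios with 95% counting intervals, open triangles are bounds for a count of 0, blue is called lower, red called higher, grey neither, and dotted lines mark the 2-fold limits. linc-22 lies far below 0 in both panels, while linc-29 and linc-6 lie above 0 in both.

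The total RNA and NRDE-3 comparisons of eri-1 use 4 different libraries. Of the 12 lincRNAs called lower in total RNA, 11 were also called lower in NRDE-3 RNA (91.7% of the 12, and 78.6% of the 14), and linc-128 had under 20 reads there. Over all genes with the same calls, 107 of 1320 were lower in both (8.11% of those lower in total RNA, and 63.7% of the 168 lower in NRDE-3 RNA). Only 687 of the 1320 had 20 or more reads in the NRDE-3 pair, and 15.6% of these were lower there. Of the 4 called higher in total RNA, linc-29 and linc-6 were also higher in NRDE-3 RNA (50% of the 4, and 28.6% of the 7). linc-143 and linc-44 had under 20 reads there. Over all genes the shares were 41.7% of 228 and 3.19% of 2981, and 97.9% of the 97 of those 228 with enough reads. No lincRNA was called in opposite directions. Over all genes, 572 of the 1320 lower in total RNA were higher in NRDE-3 RNA (43.3%, or 83.3% of the 687 with enough reads). Of the 228 higher in total RNA, 0 were lower in NRDE-3 RNA. The 11 lincRNAs lower in both were also among the 16 called higher in NRDE-3 over total RNA of N2 after cold shock (68.8% of the 16). That comparison shares no library with that of total RNA in eri-1. It shares the NRDE-3 library of N2 with the NRDE-3 comparison of eri-1, and high counts in that library favour both calls. Over all genes, 147 of the 1320 lower in total RNA were called higher there (11.14%, and 34.1% of the 431). Only 383 of the 1320 had enough reads there, and 38.4% of these were higher. Whether the lincRNAs differ from all genes in these shares was not tested.

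In susi-1(R457H), linc-16, linc-11 and linc-17 were higher than in N2, and linc-29, linc-7, linc-6, linc-121, linc-31, linc-30 and linc-77 were lower. Of 22 lincRNAs, 3 were called higher and 7 lower, where 5.69% of 4096 genes were higher and 52.2% lower. The median log2 ratio was −0.52 for the 22 and −1.20 for all genes. Under DESeq2 size factors, TMM factors or antisense reads of protein-coding genes the calls were 10 higher and 4 lower, under microRNAs 11 higher and 2 lower, and under all assigned reads 0 higher and 11 lower. The split between higher and lower thus changes with the scaling, while a scaling leaves the order of the lincRNAs by ratio as it is.

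linc-17 was 2.86-fold higher (623 reads against 368, interval 2.51 to 3.26). linc-16 was 2.45-fold higher (interval 2.24 to 2.67) and linc-11 2.20-fold higher (interval 2.10 to 2.30). linc-22 had 6759 reads against 7647, a ratio of 1.49 (interval 1.44 to 1.54), and was called neither. linc-29 was 6.67-fold lower (135 reads against 1521, interval 5.59 to 8.01), linc-30 7.55-fold lower (4 against 51), linc-6 4.71-fold lower (interval 2.95 to 7.91) and linc-121 4.49-fold lower (interval 2.70 to 7.95). The sum was 1.42-fold higher (interval 1.39 to 1.45) and called neither. It turned to a ratio of 0.826 by assigned reads and 0.903 over the lincRNAs that overlap no other gene, and was called higher at 2.77 to 3.69 under the 4 other scalings.

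The comparison of susi-1(R457H) and the NRDE-3 comparison of eri-1 with N2 share no library. linc-16, linc-11 and linc-17 were higher in the first and lower in eri-1 (100% of the 3, 21.4% of the 14). Over all genes the shares were 7.73% of 233 and 10.7% of 168, and 15.4% of the 117 of those 168 with enough reads. The calls of these 3 in susi-1(R457H) were each lost under another scaling, and their difference from all genes was not tested. linc-29, linc-7 and linc-6 were lower in the first and higher in eri-1 (42.9% of the 7 on each side). That pattern was common over all genes, with 61.8% of the 2140 lower in susi-1(R457H) and 44.3% of the 2981 higher in eri-1, so it is not a result about these lincRNAs. linc-121 was lower in both (7.14% of the 14 and 14.3% of the 7). Over all genes 20 were lower in both, which is 11.9% of the 168, 17.1% of the 117 with enough reads and 0.935% of the 2140. The susi-1(R457H) library held 425.5 CPM of nrde-3 sense reads against 28.9 in N2. The level was 225 CPM in cold-shocked N2 total RNA and 297 CPM in eri-1 total RNA without UV, whose label names the transgene. The part of these levels in the results was not tested.

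After cold shock, N2 total RNA had fewer reads of nearly all these lincRNAs, as it had of most genes. Of 21 lincRNAs, linc-9 was called higher and 18 lower, where 7.06% of 3656 genes were higher and 80.5% lower. The median log2 ratio was −3.02, against −2.76 for all genes. Scaled to antisense reads of protein-coding genes the calls were 4 higher and 6 lower, to microRNAs 3 and 7, by DESeq2 size factors 3 and 8, and by TMM factors 2 and 9.

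linc-9 had 66 reads after cold shock against 23, 8.34-fold higher (interval 5.12 to 14.04). linc-22 was 2.27-fold lower (interval 2.13 to 2.42), linc-16 was called neither at a ratio of 0.540, and linc-12, linc-7 and linc-17 were 13.5-fold, 14.2-fold and 15.8-fold lower. The ratios of linc-22 and linc-16 were nearer to 1 than those of the other 10 best-read lincRNAs, and linc-22 was 1.60-fold to 2.10-fold higher under the 4 scalings by microRNAs, DESeq2, TMM and protein-coding antisense reads. The sum was lower at a ratio of 0.275 (interval 0.262 to 0.289), and 1.00 to 1.32 under the same 4 scalings. rRNA took 95.6% of the cold-shock library, and larval microRNAs stood at 1149 CPM against 215 in N2. Sense reads of nrde-3 stood at 225 CPM (83 reads) after cold shock against 28.9 CPM in N2. The part of all these in the results was not tested.

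**Figure D4:**
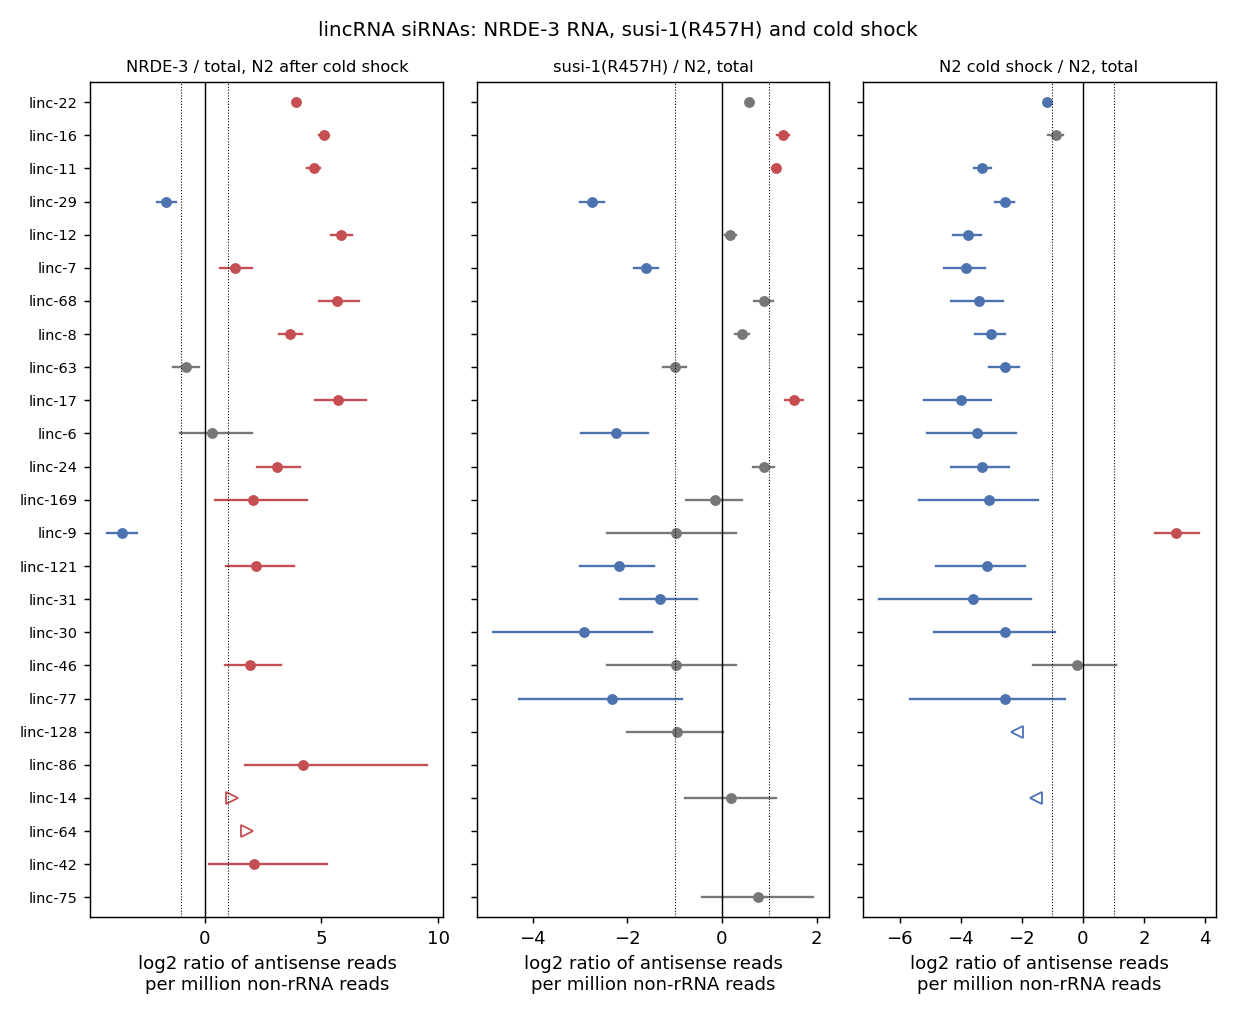
log2 ratio of antisense CPM for lincRNAs with 20 or more reads in a pair, for NRDE-3 over total RNA of N2 after cold shock, susi-1(R457H) over N2, and cold shock over no cold shock in N2. Points are ratios with 95% counting intervals, triangles are bounds for a count of 0, and colours are as called: blue lower, red higher, grey neither. linc-12 is 58.1-fold higher in NRDE-3 RNA, linc-29 6.67-fold lower in susi-1(R457H) and linc-9 8.34-fold higher after cold shock.

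With UV in eri-1, total RNA of most of these lincRNAs was called neither. Of 26, 6 were called higher (linc-22, linc-12, linc-8, linc-9, linc-91, linc-40) and linc-95 was called lower, where 19.5% of 6946 genes were higher and 3.93% lower. The share of these lincRNAs called higher, 23.1%, was near that background. The median log2 ratio was 0.06, against 0.35 for all genes. Scaled to all assigned reads the calls were 18 higher and 0 lower, to microRNAs 2 and 7, by DESeq2 or TMM 2 and 2, and to protein-coding antisense reads 3 and 1.

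linc-22, linc-12 and linc-8, all called lower in eri-1 than in N2, were among those called higher. The library without UV gave that low level and is also the denominator here, so these calls are not independent. Of the other lincRNAs called lower in eri-1, linc-16, linc-11 and linc-128 were called neither and the rest had under 20 reads. linc-22 had 146 reads with UV against 29 without, 2.28-fold higher (interval 1.52 to 3.53). linc-12 had 41 against 0, a bound of 6.20-fold higher (interval at least 4.82). The call of linc-22 was lost at 1.47 to 1.99 under the 4 scalings by microRNAs, DESeq2, TMM and protein-coding antisense reads, and those of linc-8 and linc-9 were lost under them too. linc-40 had 28 against 2, a ratio of 6.35 with an interval of 1.60 to 54.98. linc-29, with the most reads of the 38 in both libraries, had a ratio of 0.921 (interval 0.889 to 0.956), and the sum had one of 0.929 (interval 0.904 to 0.954).

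In NRDE-3 RNA of eri-1, UV against no UV could be read for 6 lincRNAs. linc-16 and linc-169 were called higher and linc-7, linc-6 and linc-9 lower, where 48.5% of 842 genes were higher and 36.8% lower, and the median log2 ratio was −3.06 for the 6 and 0.79 for all genes. linc-16 had 131 reads against 0 (a bound of 71.7-fold higher, interval at least 57.5) and linc-169 106 against 0. linc-7, linc-6 and linc-9 had 67, 69 and 35 reads without UV and 0 with UV, at least 13.6-fold, 14.02-fold and 7.11-fold lower, and linc-29 was called neither at a ratio of 0.621 (interval 0.477 to 0.802). The sum had a ratio of 1.24 (interval 1.07 to 1.44) and was called neither, and its direction turned under 6 of the alternatives, to 0.325 over the lincRNAs with no opposite exon.

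These counts come from the 2 libraries with few genes and high counts on each. linc-22 had 87 sense reads and no antisense read in the NRDE-3 library without UV, and 11 and 0 in that with UV. Against total RNA of eri-1, the NRDE-3 library without UV had 0 lincRNAs higher and 13 lower of 15 (5.67% and 91.3% of 3194 genes), and that with UV had 1 higher and 20 lower of 22 (4.53% and 92.2% of 6360 genes). Scaled to antisense reads of protein-coding genes these became 3 higher and 4 lower, and 2 higher and 8 lower. By microRNAs, DESeq2 or TMM the first was 2 higher and 12 lower, and by microRNAs the second was 2 higher and 5 lower.

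In these 2 comparisons linc-16 with UV was 14.5-fold higher in NRDE-3 RNA (131 reads against 26, interval 9.45 to 23.0). linc-29 was 24.95-fold lower without UV and 37.0-fold lower with UV. linc-11, with 813 and 1806 reads in total RNA, and linc-63, with 717 and 1589, had no read in either NRDE-3 library. The median log2 ratios were −6.17 and −5.27 for the lincRNAs and −6.40 and −5.05 for all genes, so the lincRNAs stood near the background in both.

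The lincRNA pattern was set beside a list of 18 named targets of the ERGO-1 branch, of which 15 were found in the tables. In total RNA of eri-1 against N2, 14 of 14 with enough reads were called lower, and their sum had a ratio of 0.0148 (interval 0.0129 to 0.0170). In NRDE-3 RNA 14 of 14 were lower with a ratio of 0.00425, and in NRDE-3 over total RNA of N2 after cold shock 13 of 14 were higher and the sum 49.7-fold higher. The 38 lincRNAs were mixed, with 12 of 28 lower in total RNA and 14 of 21 lower in NRDE-3 RNA. The ERGO-1 list was chosen with earlier results of these data known. Its uniform calls are therefore a description, and the difference from the lincRNAs was not tested.

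The genes with antisense reads most like those of linc-22 were sought among 2391 genes with 200 or more reads, by the Pearson correlation of log2(CPM + 1) over the 9 libraries. The first 6 were the protein-coding genes C01A2.1 (r = 0.994), Y37E11B.2 (0.992), F55C9.3 (0.992), C36A4.11 (0.991) and anr-24 (0.989) and the noncoding RNA T05E11.9 (0.988). Y37E11B.2, F55C9.3 and C36A4.11 are on the ERGO-1 list. C01A2.1 (I:13409897-13411554) had 1188 CPM in N2, 11384 in NRDE-3 RNA of N2 and 28.96 in eri-1 without UV. The libraries hold a strong split between N2 and eri-1, so a high r is a description of that split.

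Among the 38, linc-8 came nearest to linc-22 (r = 0.967, rank 29 of 2391), then linc-12 (0.963, rank 34), linc-121 (0.931), linc-68 (0.928), linc-24 (0.926), linc-17 (0.923), linc-11 (0.890) and linc-16 (0.849). linc-29 had r = −0.02. These 8 are all among the 12 called lower in eri-1 total RNA. The correlation includes the libraries that gave those calls, so this overlap follows in part from the measure.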

How the data were processed

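Small RNAs of embryos were sequenced in 9 libraries, 1 per group. A further 5 libraries of 26S rRNA ends were not used. The deposited tables give, per transcript, whole-number counts of sense and of antisense reads, per the file headers. Bowtie2 is named in the submitters' processing notes, and its version, the genome build, the annotation and the treatment of reads with several matches are not given in the sources used here. Per the labels' protocols, small RNA was gel-purified and treated with phosphatase and kinase, which lets RNAs with a 5′ triphosphate enter, and NRDE-3 was pulled down through FLAG. The libraries differ in growth, since those of the UV experiment came from plates without food.

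The 56374 entries were summed to 45510 genes. By gene ID, 44852 of them, all 169 lincRNAs included, were found in Ensembl release 115 (WBcel235). Lines without a gene name, at most 0.00052% of reads in a library, were left out. CPM is per 1000000 non-rRNA reads, of which a library held 357435 to 3123387, so the floor of 3 reads corresponds to 0.960 to 8.39 CPM. Intervals are exact and conditional on the pair's reads, at 95%. With 1 library per group no test was run. The members and lists were chosen with earlier results of these data known. The genes named are linc-22, the 12 lincRNAs with the most antisense reads, up to 4 called lincRNAs furthest from 1 in each direction and comparison, the lincRNAs next to the threshold, and the 6 genes most like linc-22; other lincRNAs are named to complete small counts. Medians of log2 ratios add 0.5 reads to both counts. The calling rule was tested on simulated data.

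The alternatives were other denominators (all assigned reads, sense reads of microRNAs, DESeq2 1.42.0 size factors, edgeR 4.0.16 TMM factors), read filters of 1 and 50, thresholds of 10 and 50 for membership, members that overlap no other gene, and the sum without linc-22. After seeing the data were added antisense reads of protein-coding genes as denominator, members without an opposite exon, and members chosen without the NRDE-3 library of N2. Python 3.11.15, SciPy 1.17.1, pandas 2.3.3 and R 4.3.3 were used.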

Additional observations from a re-analysis of the deposited data

Results flagged for a closer look

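linc-9 (I:3703542-3704956, plus strand) went in opposite directions with UV in the total and NRDE-3 RNA of eri-1. In total RNA it had 126 antisense reads with UV against 28 without, 2.04-fold higher, close to the limit of 2 and lost at 1.31 to 1.78 under the scalings by microRNAs, DESeq2, TMM and protein-coding antisense reads, and in NRDE-3 RNA it had 0 against 35, a bound of −2.83 on the log2 scale. Each side is 1 library against 1, and the difference between them was not tested. linc-9 was also the one lincRNA called higher after cold shock in N2 relative to non-rRNA reads.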

How the results depend on the processing

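No paired analysis was possible because each group has 1 library and the replicate numbers pair nothing. Relative to non-rRNA reads, other denominators shifted every log2 ratio of a pair by one amount: in susi-1(R457H) over N2 by −0.78 (assigned reads), 1.38 (microRNAs), 0.98 (DESeq2), 0.96 (TMM) and 0.99 (protein-coding antisense reads), in cold shock by −1.97, 2.02, 1.92, 1.86 and 2.26, in eri-1 over N2 in total RNA by −0.34, −0.36, 0.48, 0.55 and 0.71, and in UV in total RNA by 1.20, −0.64, −0.29, −0.29 and −0.20. In NRDE-3 RNA they were −2.95, −1.65, −3.76, −3.76 and 0.36 for eri-1 over N2 and −0.69, 1.25, −0.32, −0.33 and −1.16 for UV. For NRDE-3 over total RNA they were 3.44, 1.84, 0.97, 1.08 and −3.52 in N2, 0.32, 1.27, 1.83, 1.78 and 3.48 in eri-1 without UV, and −1.57, 3.16, −0.11, −0.25 and 2.51 with UV.

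Under all 5 denominators, 10 of the 12 named lincRNAs called in eri-1 over N2 in total RNA kept their call, 9 of 12 in NRDE-3 RNA, 7 of 12 after cold shock, 2 of 8 in susi-1(R457H), 2 of 6 and 5 of 5 with UV in total and NRDE-3 RNA, and 5 of 11, 4 of 7 and 6 of 9 in NRDE-3 over total RNA of N2, eri-1 without UV and eri-1 with UV.

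The susi-1(R457H) sum ratio was 0.826 by assigned reads, 3.69 by microRNAs, 2.80 by DESeq2, 2.77 by TMM, 2.83 by protein-coding antisense reads and 0.903 over members that overlap no gene. The cold shock sum was 1.12, 1.04, 1.00 and 1.32 by microRNAs, DESeq2, TMM and protein-coding antisense reads, and linc-22 was 1.79, 1.67, 1.60 and 2.10. The sum of eri-1 over N2 in total RNA was 0.517 by protein-coding antisense reads, 0.837 over members that overlap no gene and 0.531 without linc-22. The UV sum was 2.13 by assigned reads in total RNA. In NRDE-3 RNA it was 1.24 by non-rRNA reads, 0.768 by assigned reads, 2.95 by microRNAs, 0.555 by protein-coding antisense reads, 0.499 over members that overlap no gene and 0.325 over members with no opposite exon. NRDE-3 over total RNA was 1.45 in N2 by protein-coding antisense reads and 0.509 in eri-1 with UV by microRNAs.

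Called lincRNAs numbered, over members that overlap no gene, 3 against 10 in susi-1(R457H), 9 against 19 after cold shock, 8 against 16 in eri-1 over N2, 4 against 7 and 1 against 5 with UV in total and NRDE-3 RNA, 11 against 21 in NRDE-3 RNA of eri-1 over N2, and 9 against 18, 4 against 13 and 10 against 21 in NRDE-3 over total RNA of N2, eri-1 without UV and eri-1 with UV; here fewer lincRNAs entered. Over members with no opposite exon they numbered 6 in susi-1(R457H) and 3 with UV in NRDE-3 RNA. After cold shock they numbered 10 by microRNAs, 11 by DESeq2, 11 by TMM and 10 by protein-coding antisense reads. With UV in total RNA they numbered 18 by assigned reads, 4 by DESeq2, TMM or protein-coding antisense reads, and 3 with 50 or more reads. In NRDE-3 over total RNA by protein-coding antisense reads they numbered 11 in N2, 7 in eri-1 without UV and 10 with UV, 7 with UV by microRNAs, and without UV 6 with 50 or more reads and 23 with no filter.

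Of single lincRNAs, linc-63 stood at 0.967 in NRDE-3 RNA of eri-1 over N2 by DESeq2 and by TMM. In NRDE-3 over total RNA of N2, linc-29 stood at 3.50 by assigned reads and 1.15 by microRNAs, and linc-7 and linc-24 at 0.217 and 0.740 by protein-coding antisense reads. In eri-1, linc-6 stood at 1.33 without UV by protein-coding antisense reads, and with UV linc-12 stood at 1.88 and 1.20 and linc-8 at 2.57 and 1.64 by microRNAs and by protein-coding antisense reads, bounds from a count of 0. The cause of these changes was not tested beyond the shifts given. Membership was 52 lincRNAs at 10 reads and 31 at 50. Depth limits the lincRNAs ranked 14 to 38 most, with 2694 reads in all, and each interval covers counting error only.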

Other observations

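Sense reads of the 38 lincRNAs were few, 2280 over the 9 libraries against 219473 antisense ones, and did not follow them everywhere. In NRDE-3 RNA of eri-1 after cold shock the sense reads were 7.86-fold higher than in that of N2 (125 against 86 reads, interval 5.93 to 10.5), while the antisense reads were lower at a ratio of 0.0848. Sense reads of protein-coding genes stood at 195171 CPM in the first and 30961 CPM in the second of these libraries. linc-17 had the most sense reads of the 38, 387 in all: 70 in N2, 8 in cold-shocked N2, 15 in susi-1(R457H), 27 and 65 in eri-1 without and with UV, and 3, 0, 85 and 114 in the NRDE-3 libraries of N2, eri-1 after cold shock, eri-1 without UV and eri-1 with UV. linc-76 had 217 sense reads, 131 of them in eri-1 with UV, and 33 antisense ones. It shares exonic bases on its own strand with Y48A6C.8, and sense reads of both cannot be told apart.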
